A study of Homo sapiens with 10 samples.

Results

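ZEB1 signal was examined at the sites that lie in or beside the zinc finger genes of human chromosome 19. ZEB1 is a zinc finger transcription factor that represses epithelial genes and drives the epithelial-mesenchymal transition, and it was mapped by CUT&RUN, an assay in which an antibody directs a nuclease to the DNA that a protein occupies. A member site is a consensus site of the deposited count table on chromosome 19 whose midpoint lies inside, or within 5 kb of either end of, a protein-coding gene of the RefSeq GRCh38 annotation with a symbol that starts with ZNF, ZFP, ZSCAN or ZIM. This rule uses position alone and found 349 of the 52981 consensus sites (0.659%), which is 13.9% of the 2519 sites of chromosome 19. Chromosome 19 carries 264 such genes, 233 of which lie within reach of at least 1 member, and 31 had none.

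The cells were a breast cancer line that the labels name MDA and describe as Er-/Pr-/Her2-. They received 300 nM eribulin, a microtubule inhibitor, for 24, 48 or 72 h (label MDA_ERI), or were untreated (label MDA_Parental), with 2 anti-ZEB1 libraries in each of the 4 conditions and no time given for the untreated cells. All 3 exposures share the same untreated libraries, so an effect of the drug cannot be told apart from one of time in culture, and the series also has 2 IgG libraries of untreated cells that were not analysed here. Some label text names Tn5, a transposase foreign to CUT&RUN, and which protocol was followed is unsure.

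Most zinc finger genes of chromosome 19 encode KRAB zinc finger proteins and sit in tandem clusters that grew by gene duplication. In such a protein the KRAB domain recruits the corepressor TRIM28 and, through it, histone H3 lysine 9 methylation, while an array of C2H2 fingers, encoded mostly by the last exon, reads the DNA of transposable elements and other targets. Human KRAB zinc finger genes are themselves known to carry the repressive mark H3K9me3 over their finger exons, away from their promoters. ZEB1 is known to bind the E-box CAGGTG, which reads CACCTG on the other strand.

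The RefSeq promoter windows below (GRCh38.p14, 250 bases before to 50 bases after a gene start, printed along the gene's own strand) belong to genes on whose member sites the results turn, and capitals mark CAGGTG or CACCTG. ZNF57 (chr19:2900678-2900977, plus strand) and ZNF567 (chr19:36687362-36687661, plus strand) hold an E-box and had lower signal at 24 h. ZNF180 (chr19:44500473-44500772, minus strand) holds an E-box and its site was not called. ZFP36 (chr19:39406597-39406896, plus strand) holds none and had lower signal at 24 h. ZNF582 (chr19:56393485-56393784, minus strand) holds none, and signal rose in the body of that gene while its promoter site was not called.
ZNF57: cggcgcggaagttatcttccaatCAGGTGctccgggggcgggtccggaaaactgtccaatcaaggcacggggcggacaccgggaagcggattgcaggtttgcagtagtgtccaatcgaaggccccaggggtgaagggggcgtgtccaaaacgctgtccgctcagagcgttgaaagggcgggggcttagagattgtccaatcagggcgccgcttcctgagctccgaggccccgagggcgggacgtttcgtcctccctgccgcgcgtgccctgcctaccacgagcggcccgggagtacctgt
ZNF567: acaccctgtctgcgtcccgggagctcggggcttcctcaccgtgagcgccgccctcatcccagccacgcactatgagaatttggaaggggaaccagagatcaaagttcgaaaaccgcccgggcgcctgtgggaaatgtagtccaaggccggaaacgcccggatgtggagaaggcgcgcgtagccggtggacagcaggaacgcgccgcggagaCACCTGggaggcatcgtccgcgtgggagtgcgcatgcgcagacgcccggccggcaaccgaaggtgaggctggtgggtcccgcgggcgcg
ZNF180: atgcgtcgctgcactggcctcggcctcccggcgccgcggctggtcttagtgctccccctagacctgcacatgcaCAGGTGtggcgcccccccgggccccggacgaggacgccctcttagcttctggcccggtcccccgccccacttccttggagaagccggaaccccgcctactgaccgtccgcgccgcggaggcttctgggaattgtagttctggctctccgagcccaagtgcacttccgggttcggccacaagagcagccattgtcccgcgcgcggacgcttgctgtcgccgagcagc
ZFP36: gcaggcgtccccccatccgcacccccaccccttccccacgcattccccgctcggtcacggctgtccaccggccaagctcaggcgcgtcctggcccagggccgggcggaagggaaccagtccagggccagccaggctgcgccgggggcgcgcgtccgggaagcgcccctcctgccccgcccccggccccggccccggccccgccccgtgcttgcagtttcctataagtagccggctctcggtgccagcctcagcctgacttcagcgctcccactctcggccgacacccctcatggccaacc
ZNF582: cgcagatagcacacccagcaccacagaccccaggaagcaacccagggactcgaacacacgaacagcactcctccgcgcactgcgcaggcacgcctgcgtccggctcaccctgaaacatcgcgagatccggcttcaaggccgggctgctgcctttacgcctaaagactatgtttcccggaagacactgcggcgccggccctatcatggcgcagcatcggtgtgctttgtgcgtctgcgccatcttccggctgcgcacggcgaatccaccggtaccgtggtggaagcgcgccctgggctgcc

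Library totals over the consensus sites ranged from 1130706 to 3561455 counts, highest in untreated cells and lowest at 72 h. The 2 libraries of a condition differed by no more than the sampling noise of their counts, with a chi-square per degree of freedom over the member sites of 0.821 in untreated cells and 0.943, 1.03 and 1.08 at 24, 48 and 72 h, where sampling alone gives about 1. Both libraries of a pair hence stand for 1 sample (n = 1 per condition), and p-values compare these libraries and not separate cultures. Values are counts scaled to a library of 1000000 counts (CPM), given for each library or pooled over the pair, and intervals are 95% intervals that cover counting error only. A site was called higher or lower where edgeR's quasi-likelihood test, fitted on all consensus sites, gave a Benjamini-Hochberg adjusted p under 0.05 and the change was at least 2-fold. TMM scaling sets the sites against each other. Scaling to the background floor of the peak caller instead moved the median log2 fold change of all sites by -0.93, -1.42 and -1.497 at 24, 48 and 72 h, and the lower share of all called sites was then 93.1%, 95.9% and 97.8%, against 47.5%, 41.9% and 41.2% with TMM. Higher and lower below therefore mean relative to the other consensus sites.

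Relative to all consensus sites, eribulin left the zinc finger gene sites with few losses and with gains at about the common rate. Fewer losses than over all sites were also found at zinc finger genes of other chromosomes and at other gene starts of chromosome 19. Of the 349 members, 326 held enough counts to be tested, and the other 23 stayed at or below 7.47 pooled CPM in every condition. At 24 h, 39 tested members were called higher and 21 lower (11.96% and 6.44%), against 14.9% and 13.5% of all tested sites. At 48 h, 30 were higher and 3 lower (9.20% and 0.920%), against 10.5% and 7.55% of all tested sites. At 72 h, 42 were higher and 3 lower (12.9% and 0.920%), against 12.2% and 8.55%. The lower calls depend on single libraries: there were 7 at 48 h without 48 h replicate 2 and 6 without 48 h replicate 1, and 9 at 72 h without 72 h replicate 1 and 8 without untreated replicate 2. The direct comparison of 72 h with 24 h, which reuses the 24 h libraries, called 40 members higher and 14 lower, against 12.1% and 9.29% of all tested sites.

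The other 2170 sites of chromosome 19 lost signal more often at 24 h. Among the 2001 tested, 155 were higher and 394 lower at 24 h (7.75% and 19.7%), 205 higher and 140 lower at 48 h, and 228 higher and 152 lower at 72 h. The median log2 fold change of the members was 0.03 at 24 h, 0.04 at 48 h and 0.13 at 72 h, against -0.27, -0.13 and -0.10 for the other sites of the chromosome, and with scaling to the background floor all 6 medians were negative, -0.91, -1.37 and -1.37 for members and -1.20, -1.55 and -1.60 for the other sites. Sites at genes of the same 4 prefixes on other chromosomes, 468 of them tested, had medians of 0.10, 0.08 and 0.14 with TMM scaling, close to those of the members. At 24, 48 and 72 h, 6.41%, 2.99% and 4.70% of these were lower. Other chromosome 19 sites within 1 kb of a gene start had 9.44%, 2.36% and 2.79% lower. Members at gene starts had 5.95%, 0% and 0% lower. Since sites are not replicates of a condition, no test was made of these differences between groups of sites.

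Most member sites lay at gene starts, a share to which the rule adds, since it takes sites in or beside genes. Within 1 kb of the start of a protein-coding gene lay 191 members (54.7%), against 488 other sites of chromosome 19 (22.5%). A further 97 members (27.8%) lay in a gene body, 7 near a gene end, 21 outside genes and 33 in genes for which no strand was at hand. In untreated cells the members held a median of 47.9 CPM per kb of site length, with quartiles of 30.4 and 72.2, against 58.9 CPM per kb, with quartiles of 36.2 and 95.1, at the other sites of the chromosome.

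The strongest member in untreated cells lay in the body of ZNF792 (chr19:34960252-34960865), with 136 and 147 CPM in the 2 untreated libraries. Next came a site 2981 bp beyond the end of ZFP36 at the start of PLEKHG2, with 136 and 140 CPM, and a site between ZNF473 and VRK3 with 130 and 124 CPM. ZNF473 encodes a protein of histone pre-mRNA processing. The start of ZNF57 followed with 126 and 118 CPM and a site in ZNF565 with 113 and 106 CPM. Of these 5 sites, only the one at ZNF57 was called in a comparison with untreated cells.

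More of the gene body members than of the start members were called higher, but many of those body sites are in the table only through an eribulin peak. Among the 62 members that lay in a gene body and overlapped no RefSeq promoter window, 50 were tested, and 19 were higher and 1 lower at 24 h, 22 higher and 2 lower at 48 h, and 25 higher and 1 lower at 72 h. The higher shares were 38%, 44% and 50%, against 14.9%, 10.5% and 12.2% of all tested sites. Lower were 13.5%, 7.55% and 8.55% of all tested sites. The median log2 fold changes of the 50 were 0.72, 0.74 and 1.21. The 226 tested members at a gene start or in a promoter window had 13 higher and 14 lower calls at 24 h, 5 against 0 at 48 h, and 11 against 0 at 72 h, with medians of 0.01, 0.04 and 0.10. Among tested sites with a deposited peak in untreated cells, a comparison chosen after seeing the data, 6, 6 and 10 of 33 body members were higher at the 3 times (18.2%, 18.2% and 30.3%), against 11, 1 and 7 of 220 start or promoter window members (5.00%, 0.455% and 3.18%). The 33 body members had median log2 fold changes of 0.42, 0.37 and 0.43, against -0.01, 0.02 and 0.09 for the 220. Of all tested sites, with or without an untreated peak, 14.9%, 10.5% and 12.2% were higher. Of the 17 tested body members with no untreated peak, 13, 16 and 15 were higher, and such sites were chosen in part by their eribulin signal. With scaling to the background floor the median of the body sites turned negative (-0.20, -0.68 and -0.29), as did that of the start sites (-0.93, -1.38 and -1.40), and 12, 10 and 9 body sites but 0, 2 and 2 start sites remained past the threshold for higher.

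Body sites of other chromosome 19 genes had medians below 0. Of 585 tested chromosome 19 sites in the bodies of other genes and outside promoter windows, 33 were higher and 146 lower at 24 h, 77 against 59 at 48 h, and 82 against 63 at 72 h, with medians of -0.45, -0.17 and -0.03. With promoter windows included, 26.8% of body members and 13.0% of other body sites had peaks in eribulin alone. The body sites of members and of other genes thus differ in how they entered the table. The gained zinc finger sites were weak in untreated cells. Body members called higher at 24 h had a median of 15.4 CPM per kb in untreated cells, against 48.5 CPM per kb for all tested body members not called higher, those in promoter windows included. Of the 27 body sites outside promoter windows called higher at 1 or more times, 22 had a deposited peak at 24 h, against 10 in untreated cells, where 22 held under 10 pooled CPM. A site enters the table through a peak in any condition and a fold threshold favours low starting levels, so these differences describe the called sites and are no separate result.

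**Figure D1:**
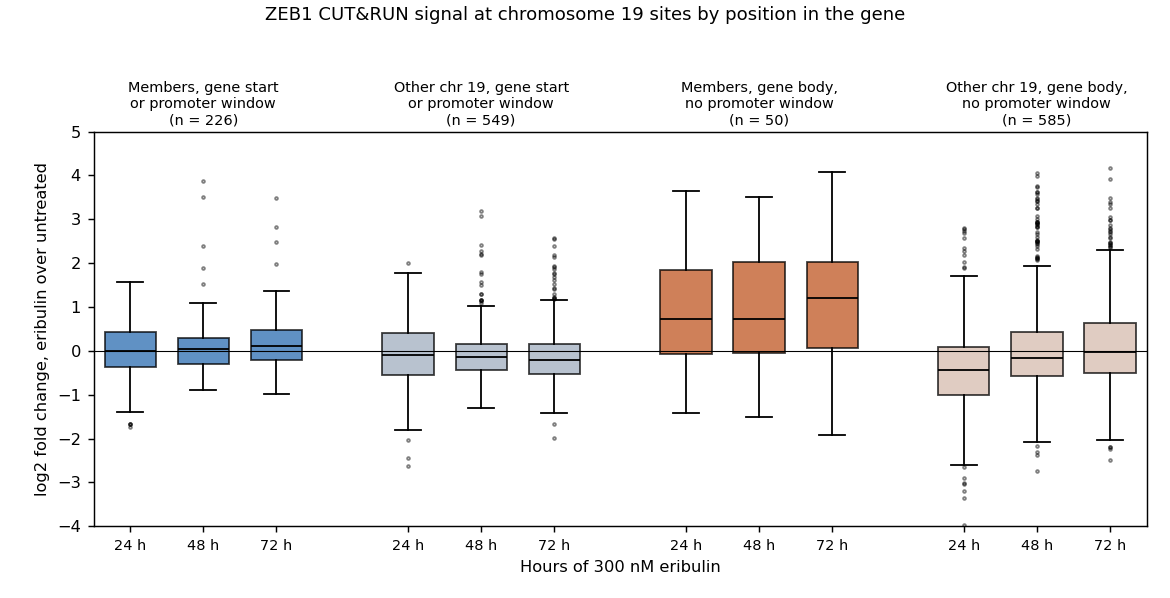
Log2 fold change of ZEB1 signal, eribulin over untreated (y axis), at 24, 48 and 72 h (x axis) for tested chromosome 19 sites in 4 classes: zinc finger gene members and other sites, at a gene start or promoter window or in a gene body outside one. Boxes are quartiles with the median as a line, whiskers reach 1.5 times the box height and points are sites beyond them. The 50 body members have medians of 0.72, 0.74 and 1.21, and the medians of the other classes lie between -0.45 and 0.10. Of the 50, 17 had no untreated peak and were chosen in part by their eribulin signal. The 33 with an untreated peak have medians of 0.42, 0.37 and 0.43.

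Sites in ZNF566, ZNF582, ZNF283, ZNF83 and ZNF780B gained most at 24 h among members above the median abundance. The naming rule took only called sites with both 24 h libraries above both untreated ones. Their separation and p-values are therefore no separate result. The sites in ZNF566, ZNF582, ZNF283 and ZNF83 had no deposited peak in untreated cells and are among the consensus sites through eribulin peaks. The ZNF566 site (chr19:36449184-36449610), 40.2 kb inside the gene and 4278 bp from its end, had 2.55 and 1.61 CPM in the untreated libraries, 25.7 and 28.5 CPM at 24 h, 18.1 and 25.8 CPM at 48 h, and 29.6 and 44.4 CPM at 72 h. Every eribulin library lay above both untreated libraries, and the log2 fold change at 72 h was 4.08 (3.30 to 5.05; edgeR adjusted p = 2.52e-28). The ZNF582 site (chr19:56383899-56384484), 1440 bp from the end of its gene, had 2.83 and 3.55 CPM untreated, 33.2 and 42.2 CPM at 24 h, 27.2 and 33.2 CPM at 48 h, and 42.3 and 56.1 CPM at 72 h. Here too the eribulin libraries did not overlap the untreated ones, and the log2 fold change at 72 h was 3.92 (3.27 to 4.70; edgeR adjusted p = 7.50e-35).

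The ZNF83 site (chr19:52670055-52670414), 20.3 kb inside the gene, kept gaining with time. It had 8.78 and 5.81 CPM untreated, 62.4 and 53.8 CPM at 24 h, 87.7 and 79.7 CPM at 48 h, and 107 and 132 CPM at 72 h. No 2 conditions overlapped, and signal at 72 h was 2.04 times that at 24 h (edgeR adjusted p = 1.39e-13). The ZNF283 site (chr19:43847645-43848144) stood at 2.55 and 1.94 CPM untreated, 21.6 and 20.6 CPM at 24 h, 19.7 and 20.7 CPM at 48 h, and 26.2 and 26.3 CPM at 72 h. The ZNF780B site (chr19:40035564-40036446) was highest at 24 h, with 66.4 and 67.5 CPM, against 9.63 and 10.7 CPM untreated, and had 35.5 and 40.6 CPM at 48 h and 41.5 and 40.8 CPM at 72 h. With floor scaling its log2 fold change was 0.49 at 48 h and 0.52 at 72 h, under the 2-fold threshold. At all 5 sites each of the 6 eribulin libraries was above both untreated libraries. The naming rule required this at each time for ZNF566, ZNF582, ZNF283 and ZNF83, and at 24 h for ZNF780B.

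**Figure D2:**
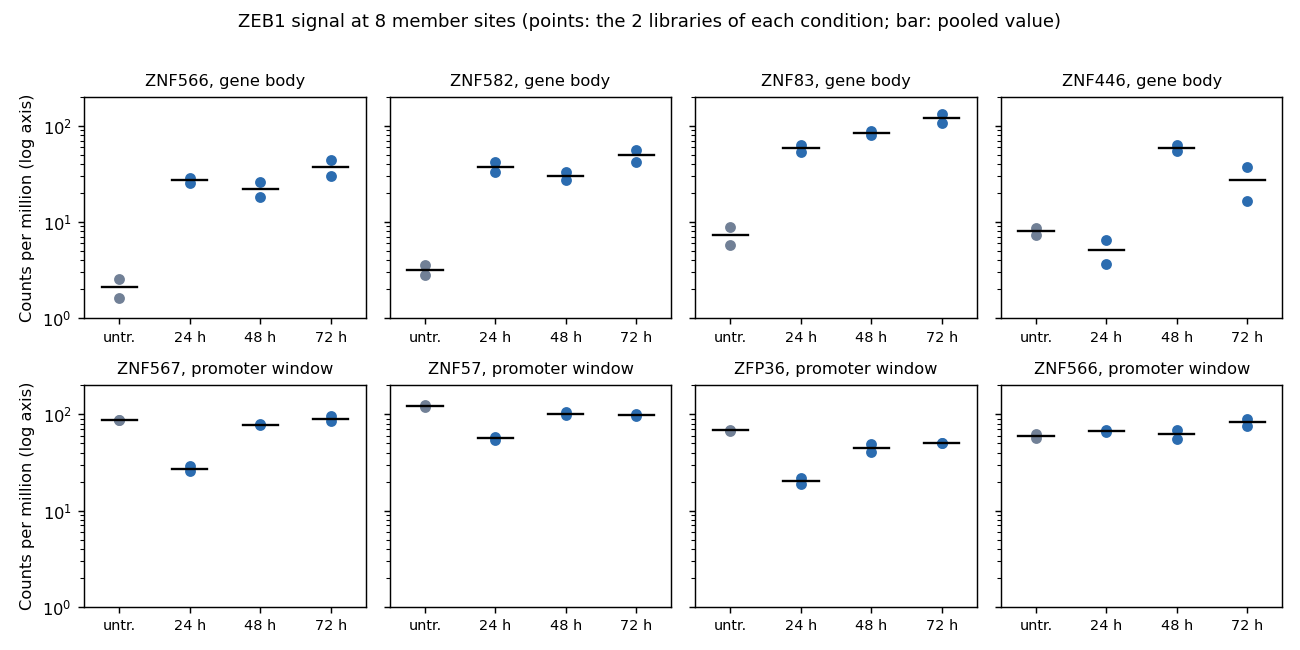
ZEB1 signal in CPM (y axis, log scale) in each of the 2 libraries (points) and pooled (bars) at 8 member sites for untreated cells and 24, 48 and 72 h of eribulin (x axis). The body sites of ZNF566, ZNF582 and ZNF83 are high in all eribulin libraries, that of ZNF446 only at 48 and 72 h, and the promoter sites of ZNF567, ZNF57 and ZFP36 are lowest at 24 h.

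Start sites of the same genes were called higher at shares near or under those of all tested sites. Of the 22 genes with a body site outside promoter windows called higher in at least 1 comparison, 18 also had a tested start site. The start site with the highest untreated signal was taken for each gene, a choice that can lower its fold change. This start site was called higher in 3 genes at 24 h (ZNF426, ZNF584 and ZNF780B), in 0 at 48 h and in 2 at 72 h (ZNF426 and ZNF562). None was called lower. These are 16.7%, 0% and 11.1% of the 18, where 6.49%, 1.08% and 3.78% of all 185 tested start members were higher. Of all tested sites, 14.9%, 10.5% and 12.2% were higher. The median log2 fold changes of these 18 start sites were 0.21, 0.10 and 0.25, against 0.01, 0.04 and 0.11 for all start members, with a range at 72 h of -0.61 to 1.35, and under floor scaling the common shift given above applies to both kinds of site. The promoter site of ZNF566 (chr19:36488998-36490043) had 56.4 and 62.9 CPM untreated, 65.4 and 68.0 CPM at 24 h, 55.9 and 67.9 CPM at 48 h, and 88.9 and 75.2 CPM at 72 h, a log2 fold change at 72 h of 0.47 (0.21 to 0.72). The promoter site of ZNF582 (chr19:56393244-56393684), overlapping the window printed above by 200 bases, was weak throughout, with 9.92 and 10.0 CPM untreated and 6.77 and 9.05 CPM at 72 h. The ZNF83 start site had 27.8 pooled CPM untreated and 42.7, 26.9 and 35.9 CPM at 24, 48 and 72 h, against the 16.0-fold gain at 72 h of the site in its body. ZSCAN22 had a body site with a log2 fold change of 2.92 at 72 h and a start site at -0.00, and ZNF607 had 2.61 in the body and 0.62 at the start.

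**Figure D3:**
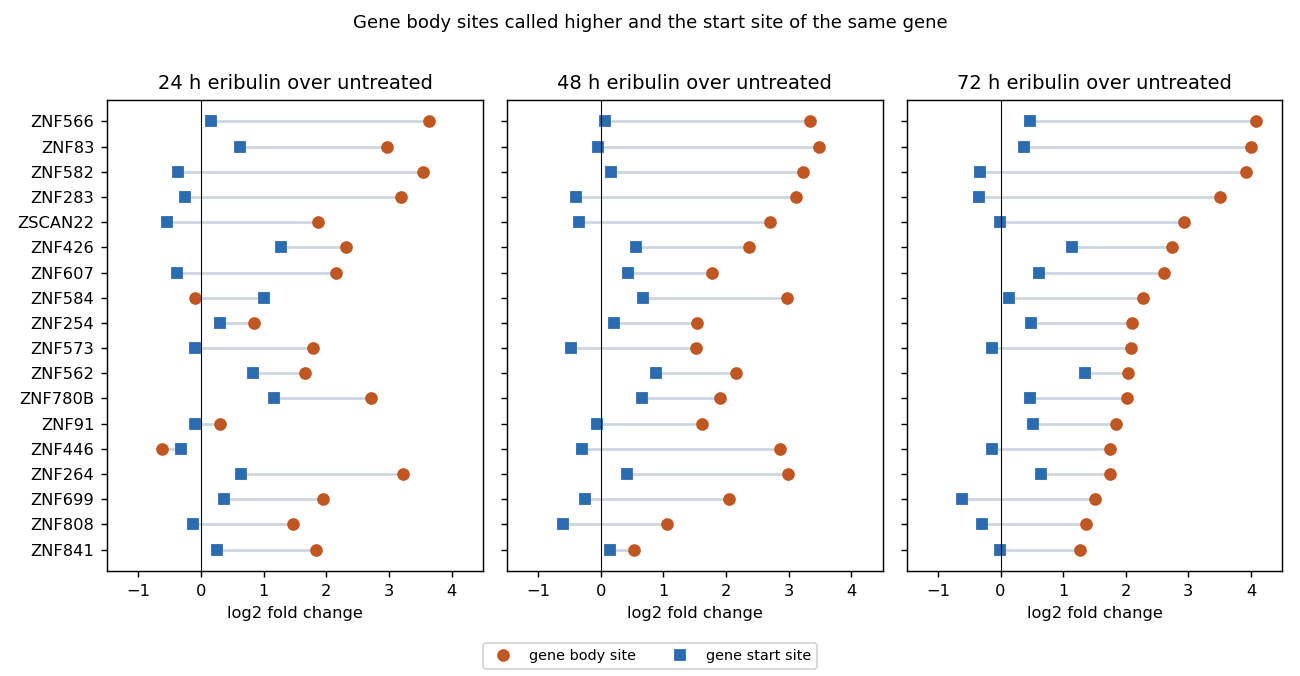
Log2 fold change, eribulin over untreated (x axis), of the gained body site (circles) and the strongest start site (squares) of 18 zinc finger genes (rows) at 24, 48 and 72 h. Body sites were chosen for their gain and start sites for the highest untreated signal, choices that can widen the contrast. The body sites reach 4.08 at 72 h, while the start sites lie between -0.61 and 1.35 at 72 h.

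Some sites gained mostly after 24 h. The ZNF446 site (chr19:58487985-58488415), 1333 bp from the end of its gene, had 7.37 and 8.71 CPM untreated, 6.54 and 3.69 CPM at 24 h, 54.4 and 62.7 CPM at 48 h, and 37.3 and 16.3 CPM at 72 h. The libraries at 24 h lay below both untreated libraries and those at 48 h far above them, and the log2 fold change at 48 h was 2.86 (2.42 to 3.35; edgeR adjusted p = 1.25e-32). The site 1722 bp before ZNF554, which also lies near THOP1, a peptidase gene (chr19:2817649-2818643), had 36.6 and 33.9 CPM untreated, 57.9 and 58.0 CPM at 24 h, 139 and 189 CPM at 48 h, and 190 and 193 CPM at 72 h. No 2 conditions overlapped, although the higher library at 48 h lay next to those at 72 h, and the level at 72 h was 3.30 times that at 24 h. Signal before ZNF554 was already higher at 24 h, by 0.71 on the log2 scale (0.44 to 0.98; edgeR adjusted p = 8.60e-07), under the 2-fold threshold. A site in the body of ZNF254 (chr19:24054072-24054831) had 50.7 and 44.5 CPM untreated, 55.3 and 58.0 CPM at 24 h, 82.4 and 79.7 CPM at 48 h, and 124 and 135 CPM at 72 h. These calls depend on the scaling: with floor scaling the log2 fold change at 72 h was 0.26 at ZNF446, 0.93 before ZNF554 and -0.07 in ZNF254, and that before ZNF554 at 48 h was 0.79.

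Further late gains were found at ZNF331, ZNF835, ZSCAN5A, ZNF584 and ZNF91, named after their values were seen. ZNF331, an imprinted gene in humans, holds 8 member sites, the most of any gene, and 3 of them at an internal promoter window were called higher at 48 h. The strongest of the 3 (chr19:53554537-53554796) had 5.28 pooled CPM untreated and 6.43, 15.3 and 7.88 CPM at 24, 48 and 72 h. A site 466 bp inside ZNF835 had 3.32 pooled CPM untreated and 3.86, 38.5 and 24.1 CPM at 24, 48 and 72 h. The body site of ZSCAN5A had 1.81 pooled CPM untreated and 1.80, 21.3 and 11.4 CPM, and that of ZNF584 had 1.66 CPM untreated and 1.54, 13.4 and 8.31 CPM. All of these were near their untreated level at 24 h and highest at 48 h. The 11 members called higher at 48 h but not at 24 h had median log2 fold changes of 0.31, 2.396 and 2.28 at the 3 times, where the comparisons share the untreated libraries and the values at 24 and 48 h chose the sites. ZNF91, which in humans represses SVA transposable elements, had a body site with 4.98 pooled CPM untreated and 6.18, 15.3 and 17.9 CPM at the 3 times.

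With TMM scaling, losses were called mostly at 24 h, at 21 members, against 3 at 48 h and 3 at 72 h. Of all tested sites, 13.5%, 7.55% and 8.55% were lower at these times. Leaving out 1 library raised the later counts to as many as 7 and 9. Floor scaling did not keep this order, with 143, 244 and 230 members lower at 24, 48 and 72 h. The part of the lower depth at 48 and 72 h was not tested. The 21 members lower at 24 h had a median log2 fold change of -1.27 at that time, which chose them, and medians of -0.60 at 48 h and -0.31 at 72 h in comparisons that share the same untreated libraries. ZFP36, which encodes the mRNA decay factor tristetraprolin and not a C2H2 protein, carried 3 of them. The site at the ZFP36 start (chr19:39406718-39407139), overlapping the promoter window printed above by 179 bases, had 66.6 and 69.4 CPM untreated, 21.6 and 18.98 CPM at 24 h, 40.1 and 49.5 CPM at 48 h, and 49.95 and 49.8 CPM at 72 h. Its 24 h libraries were the lowest and its untreated libraries the highest, with a log2 fold change at 24 h of -1.74 (-2.10 to -1.39; edgeR adjusted p = 2.24e-25). The site at the end of the gene (chr19:39409435-39409874) had 70.0 and 62.9 CPM untreated, 20.6 and 18.98 CPM at 24 h, 61.2 and 62.7 CPM at 48 h, and 44.9 and 48.9 CPM at 72 h. A site 2028 bp beyond the gene (chr19:39411321-39411549) fell furthest, to 3.52 and 6.33 CPM at 24 h, 12.8 and 10.3 CPM at 48 h, and 13.5 and 9.96 CPM at 72 h, against 28.6 and 30.3 CPM untreated, and it was called lower at each time. Without the 7 ZFP36 sites, 18 members were lower at 24 h and 2 at 48 h and 2 at 72 h.

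Apart from the ZFP36 sites, ZNF491 and ZNF567 had the largest losses at 24 h among members above the median abundance. The ZNF567 site (chr19:36687164-36687966) covers the whole promoter window printed above and had 86.4 and 86.1 CPM untreated, 28.7 and 25.8 CPM at 24 h, 77.1 and 79.0 CPM at 48 h, and 84.7 and 96.0 CPM at 72 h. Its 24 h libraries stood below the other 6, a change on the log2 scale of -1.66 (-1.97 to -1.36; edgeR adjusted p = 6.08e-30), and 72 h exceeded 24 h 3.30-fold. The ZNF491 site (chr19:11797531-11797812), 852 bp before the gene, had 45.9 and 47.4 CPM untreated, 15.1 and 14.2 CPM at 24 h, 34.0 and 29.5 CPM at 48 h, and 39.8 and 39.8 CPM at 72 h. At 72 h its log2 fold change was -0.23 (-0.58 to 0.11), an interval that includes 0.

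Besides the ZFP36 site beyond the gene, the sites called lower at 48 or 72 h were at ZNF285, ZNF700 and ZNF577. ZNF700 had a body site with 9.65 pooled CPM untreated and 8.75, 4.11 and 6.13 CPM at 24, 48 and 72 h, called at 48 h. The ZNF285 body site had 11.8 pooled CPM untreated and 4.38, 4.11 and 3.06 CPM at 24, 48 and 72 h. The ZNF577 site (chr19:51799295-51799709) had 25.2 and 20.003 CPM untreated, 25.7 and 21.6 CPM at 24 h, 15.1 and 14.02 CPM at 48 h, and 11.9 and 9.96 CPM at 72 h, and it lies near FPR3 as well. It is also the member nearest the limit of the rule, 4940 bp from the gene. The nearest site outside, 5023 bp from ZNF844, had 26.1 pooled CPM untreated and 13.6, 19.04 and 24.1 CPM at the 3 times.

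Of 7 losses at 24 h in promoter windows of chromosome 19 zinc finger genes, 5 were in windows with an E-box. Counting windows of any gene, 8 members with a loss overlapped one. Both strands were searched for CAGGTG and CACCTG, which are the same site read from either strand. Of the 191 tested members that overlap a promoter window of a chromosome 19 zinc finger gene, 36 had an E-box in the window. At 24 h, 0 of these were higher and 5 lower, against 11 higher and 2 lower among the 155 without one. Of all tested sites, 14.9% were higher and 13.5% lower at 24 h. Losses with an E-box were thus near the common share, and those without one were below it. At 48 h 3 with and 0 without an E-box were higher, at 72 h 2 with and 5 without, and none of either was lower. The 3 at 48 h are the ZNF331 sites described above and so stand for 1 gene. Of the 5 start or promoter window members higher at 48 h, 1 had a deposited peak in untreated cells. For 72 h over 24 h, 6 with an E-box were higher and 0 lower, against 8 higher and 5 lower without one. The median log2 fold changes were -0.20 with and 0.13 without an E-box at 24 h, -0.05 against 0.04 at 48 h, and 0.14 against 0.11 at 72 h, before the shift that floor scaling gives to all of them. The 5 were at ZNF57, ZNF799, ZNF443, ZNF101 and ZNF567, taken as found. Their log2 fold changes were -1.66 to -1.09 at 24 h, -0.67 to -0.11 at 48 h and -0.46 to 0.06 at 72 h. The other 2 of the 7 losses were at ZFP36 and ZNF776.

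The ZNF57 start site (chr19:2900437-2901176) had 126 and 118 CPM untreated, 58.4 and 54.3 CPM at 24 h, 105 and 98.2 CPM at 48 h, and 101 and 96.0 CPM at 72 h. It stood lowest at 24 h, at -1.12 on the log2 scale (-1.34 to -0.90; edgeR adjusted p = 8.62e-25). ZNF180, whose window also holds an E-box, had 35.7 and 36.5 CPM untreated, 43.3 and 46.9 CPM at 24 h, 40.1 and 50.9 CPM at 48 h, and 53.3 and 47.1 CPM at 72 h, and was not called. The higher calls without an E-box included ZNF274, whose protein is known in human cells to bind the 3′ ends of zinc finger genes and recruit the methyltransferase SETDB1, with 19.5 pooled CPM untreated and 39.6, 20.2 and 25.8 CPM at 24, 48 and 72 h. In untreated cells, windows with an E-box held a median of 56.3 CPM per kb and those without 48.5, with quartiles of 40.4 and 82.7 against 33.5 and 72.4. An E-box was present in 16.7% of the 222 zinc finger promoter windows that overlap a member and in 9.38% of the 64 that overlap none, against 21.1% of other chromosome 19 promoter windows and 19.9% of all 22199 windows. A match of letters is a description of the window and shows no binding at that position.

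**Figure D4:**
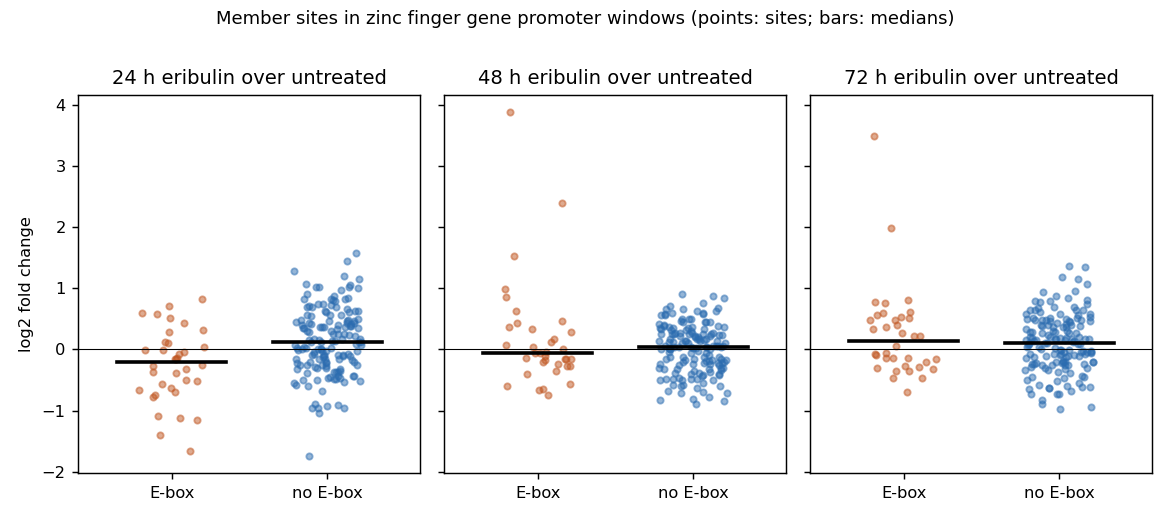
Log2 fold change, eribulin over untreated (y axis), at 24, 48 and 72 h of the 36 tested members in zinc finger gene promoter windows with CAGGTG or CACCTG and the 155 in windows without it (points, spread sideways for visibility; bars are medians). At 24 h the medians are -0.20 and 0.13, and at 72 h they are 0.14 and 0.11.

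The genes form 9 clusters, taken as runs of at least 5 zinc finger genes with gaps of at most 500 kb, which hold 249 of the 264 genes. At 24 h the medians ran from -0.48 in the small cluster ZNF554 to ZNF77 (5 tested sites) to 0.39 in the cluster ZNF175 to ZNF331 (62 tested sites). In the cluster ZNF175 to ZNF331, 13 sites were higher and 2 lower at 24 h, 6 against 0 at 48 h, and 10 against 1 at 72 h. For 72 h over 24 h, 3 of its 62 tested sites were higher and 8 lower, among the latter that of ZNF614. Of all tested sites, 12.1% were higher and 9.29% lower in that comparison. ZNF614 had 12.7 pooled CPM untreated and 25.7, 16.4 and 7.88 CPM at 24, 48 and 72 h. The cluster ZNF653 to ZNF791 had the reverse balance at 24 h, with 1 site higher and 6 lower of 36 tested and a median of -0.38, and medians of -0.36 at 48 h and -0.15 at 72 h. At 24 h, 14.9% of all tested sites were higher and 13.5% lower, and 19.7% of the other tested chromosome 19 sites were lower. The 20 tested sites of the same span that belong to no zinc finger gene had a median of -0.54 at 24 h. The losses of the cluster were at ZNF823, ZNF491, ZNF44, ZNF799 and ZNF443, the last with 2 sites. All 25 genes of that cluster had a member within reach.

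The cluster ZNF101 to ZNF254, which lies on the short arm next to the centromere, had 10 of 37 genes without a site, and medians of 0.37, 0.28 and 0.42 at 24, 48 and 72 h. The telomeric cluster ZNF628 to ZNF446 lacked a site at 12 of 70 genes, had 5 sites higher and 5 lower at 24 h, and had 8 higher and 0 lower at 48 h and 9 and 0 at 72 h of 74 tested. Of all tested sites, 10.5% were higher and 7.55% lower at 48 h, and 12.2% and 8.55% at 72 h. Medians in the 4 remaining clusters lay between -0.11 and 0.37 at 24 h, and the 26 tested members outside clusters had a median of -0.24. With scaling to the background floor these medians move by the common shift and those above 0 become negative. The strongest sites of the clusters that were not described above were at the starts of ZNF414, ZNF653 and ZNF837. ZNF414 had 62.1 and 64.8 CPM untreated and 104 and 101 CPM at 24 h, then 54.4 and 56.1 CPM at 48 h and 49.1 and 54.3 CPM at 72 h. ZNF653 had 103 and 98.7 CPM untreated, 54.8 and 49.0 CPM at 24 h, 69.5 and 65.0 CPM at 48 h, and 61.0 and 69.7 CPM at 72 h, just short of a 2-fold loss at 24 h. ZNF837 had 60.1 and 67.1 CPM untreated, 76.5 and 83.3 CPM at 24 h, 66.5 and 52.4 CPM at 48 h, and 60.95 and 44.4 CPM at 72 h, with overlap between untreated cells and the later times.

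**Figure D5:**
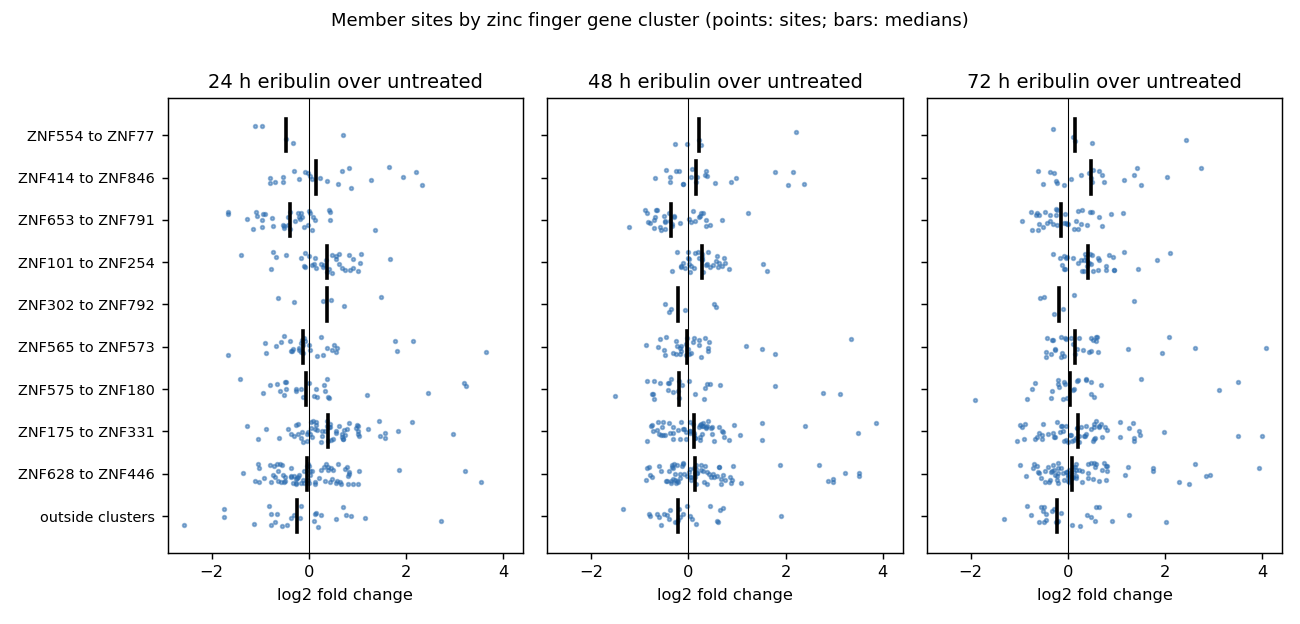
Log2 fold change, eribulin over untreated (x axis), of each tested member (points, spread vertically for visibility) in the 9 zinc finger gene clusters and outside them (rows, in order along the chromosome) at 24, 48 and 72 h, with medians as bars. At 24 h the cluster ZNF653 to ZNF791 has a median of -0.38 and the cluster ZNF175 to ZNF331 one of 0.39.

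Inside the clusters, 134 sites that belong to no zinc finger gene were tested. Of these, 15 were higher and 13 lower at 24 h, 31 against 9 at 48 h, and 30 against 9 at 72 h, with higher shares of 11.2%, 23.1% and 22.4%, against 14.9%, 10.5% and 12.2% of all tested sites. Their medians were -0.09, -0.04 and 0.08, and the calls were uneven, with 14 of the 31 at 48 h in the span ZNF414 to ZNF846 and 0 in ZNF653 to ZNF791. In the span ZNF565 to ZNF573, 6 such sites were tested, of which 5 were higher at 48 h and 5 at 72 h. The median log2 fold change of these 6 sites was 0.83 at 24 h, 2.50 at 48 h and 2.04 at 72 h.

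Under eribulin, member sites had a deposited peak more often than the other sites of chromosome 19. A peak was present at 273 of 349 members at 24 h (78.2%, exact binomial 95% interval 73.5 to 82.4), at 196 at 48 h (56.2%) and at 195 at 72 h (55.9%), against 311 in untreated cells (89.1%). At the other sites of the chromosome the shares were 57.9%, 43.9% and 38.6% at 24, 48 and 72 h, against 89.0% in untreated cells. Over all consensus sites they were 61.3%, 39.4% and 32.1%, against 86.6% in untreated cells. A peak in all 4 conditions was present at 41.8% of members (36.6 to 47.2), at 28.7% of the other sites of the chromosome (26.8 to 30.7) and at 24.1% of all sites. Start members held a peak in all 4 conditions at 100 of 191 sites (52.4%) and body members at 29 of 97 (29.9%). Other chromosome 19 sites held one at 45.5% of start sites and 21.4% of body sites, a smaller difference within each class. Members lay more often at starts and were wider, with a median of 362 bp against 261 bp. The part of this in the shares was not tested. Peaks in eribulin alone were found at 26 body members (26.8%) and 4 start members (2.09%). Depth also fell over the conditions, with totals of 1886419 and 1799143 counts at 24 h and 1207987 and 1130706 at 72 h, against 3561455 and 3146228 in untreated cells, and its part in these shares was not tested.

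Genes of the corepressor pathway that KRAB zinc finger proteins use had few called sites. At 28 corepressor and heterochromatin genes, 57 sites were tested, of which 8 were higher and 0 lower at 24 h, 4 against 1 at 48 h, and 6 against 1 at 72 h, near or under the background shares given above. TRIM28, the corepressor itself, had a site with 13.4 pooled CPM at 24 h against 4.37 CPM untreated, and 7.84 and 4.38 CPM at 48 and 72 h. A stronger TRIM28 site (chr19:58543928-58544457) had 36.8 pooled CPM untreated and 52.5, 41.1 and 36.8 CPM at 24, 48 and 72 h and was called in no comparison. EHMT1, a histone H3 lysine 9 methyltransferase, held 3 of the 4 sites called higher at 48 h, so that count stands mostly for 1 gene. Its 3 sites were weak in untreated cells, with 1.96, 2.41 and 0 pooled CPM. At 48 h they had 6.35, 18.7 and 8.21 CPM. Other tandem gene families of chromosome 19 had 67 tested sites, most of them at PSG, FUT, CGB and CEACAM genes, with 5 higher and 5 lower at 24 h, 9 against 3 at 48 h, and 10 against 2 at 72 h, with higher shares of 7.46%, 13.4% and 14.9%, against the 14.9%, 10.5% and 12.2% of all tested sites.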

How the data were processed

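The authors' deposited count table gives whole-number counts per consensus site for each of the 8 ZEB1 libraries, without normalization. The deposited peak lists, 1 per condition, give a fold enrichment (a ratio) and -log10 p and -log10 q values per peak in the layout of MACS2, and were used for peak presence and for the background floor. Per the submitters' processing notes, the build was hg38 and the tools included MACS2 2.1.1, Bowtie2 2.2.6, bedtools 2.30.0, featureCounts, deepTools and Picard, with cutadapt 2.4 and bcl2fastq 2.20.0.422, in no stated order. The unit counted, reads or fragments, is not given in the sources used here.

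All 46436 sites that passed filterByExpr were fitted with edgeR 4.0.16 (R 4.3.3), TMM factors and condition as the only term, and tested 2-sided with a robust quasi-likelihood fit. The common biological coefficient of variation was 0.00988, which reflects counting noise and not spread between cultures. Intervals of fold changes are exact conditional binomial intervals of pooled counts. The test was tried on simulated data first. Replicate numbers did not pair the libraries (correlations of -0.011 to 0.016). Strand was known for 228 of the 264 genes from the RefSeq promoter table, and the RefSeq gene table gave names and positions on GRCh38. Of the members, 60 lie within reach of more than 1 zinc finger gene, and each was assigned to the nearest.

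Named sites were, per comparison with untreated cells, up to 5 per direction with the largest change above the median abundance with treated libraries on 1 side of both untreated ones, the 5 strongest in untreated cells, the strongest of each cluster, those at the 5 kb limit, and those of ZNF566 and ZNF582. Others are named as examples after their values were seen. The members and lists were chosen with earlier results of these data known. The floor was solved from the deposited fold and p values for at least 99.6% of the peaks considered. A planned count of finger motifs per protein was not made. Alternatives are given in the closing section.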

Additional observations from a re-analysis of the deposited data

Results flagged for a closer look

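The effect at 72 h differed from that at 24 h by at least 2-fold in a direct edgeR test (adjusted p under 0.05) at 10 named sites, given here as log2 fold change of 72 h over 24 h. Sites higher at 72 h than at 24 h without a loss called at 24 h were at 2.38 at ZNF446, 1.72 at the site before ZNF554, 1.19 in ZNF254 and 1.03 in ZNF83. Sites with a loss at 24 h were higher again at 72 h, by 1.72 at ZNF567 and 1.44 at ZNF491, and at ZFP36 by 1.29 at its start, 1.24 at its end and 1.26 beyond it. The ZFP36, ZNF491 and ZNF567 sites were named for their low values at 24 h, which this comparison shares. The ZNF577 site was lower at 72 h than at 24 h, at -1.11. With scaling to the background floor, 6 of the 10 fell under the 2-fold threshold (ZNF254, ZNF83, ZNF491 and the 3 ZFP36 sites) and 0 changed sign. The libraries of each condition count as 1 sample, so the tests compare libraries.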

How the results depend on the processing

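For 23 site changes, each in the comparison that named the site, 345 values were recomputed, of which 340 kept their direction and side of the threshold, 5 fell under it (4 at ZNF577, and ZNF554 at 72 h with 0.93 under floor scaling) and 0 reversed. Over all 29 calls against untreated cells at the named sites, floor scaling left 23 past 2-fold and 5 under it, and ZNF254 at 72 h turned to -0.07. ZNF577 lost its call with DESeq2, under a coefficient of variation set to 0.2, and without untreated replicate 1 or 72 h replicate 2. With libraries this similar, p-values say little of spread between cultures, and depth limits sites under about 10 CPM.

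Scaling to the background floor gave 13, 12, 11 and 9 members higher at 24 h, 48 h, 72 h and for 72 h over 24 h, and 143, 244, 230 and 60 lower. Adjusted p alone gave 91, 53, 78 and 69 higher and 81, 42, 34 and 41 lower. A fold of 1.5 gave 69, 49, 66 and 63 higher and 55, 30, 23 and 38 lower. Sites of high abundance (the top of 3 equal classes by mean abundance) held 9, 8, 12 and 18 higher and 10, 0, 1 and 5 lower. A window of 0 kb left 25 higher and 12 lower at 24 h, 1 lower at 72 h and 6 lower for 72 h over 24 h, and one of 20 kb gave 7 lower at 48 h and 6 at 72 h. DESeq2 gave 1 lower at 48 h and 5 for 72 h over 24 h, where the assumed variation also gave 5 and library totals gave 24. When a peak had to cover at least 50% of the site, 103 members had one at 48 h and 108 at 72 h.

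The median of members minus that of other chromosome 19 sites was 0.30, 0.18, 0.23 and -0.08 in the 4 comparisons. At 24 h it was 0.25 with the 0 kb window, 0.23 at high-abundance sites and 0.32 without ZFP36, an alternative chosen after seeing the data. At 48 h it was 0.18 with floor scaling, DESeq2 and without ZFP36, 0.17 without the filter, 0.23 and 0.16 with the 0 and 20 kb windows and 0.19 at high-abundance sites. At 72 h it was 0.22 without the filter, 0.36 and 0.20 with the windows, 0.26 at high-abundance sites and 0.25 without ZFP36. For 72 h over 24 h it was -0.018 with the 0 kb window and 0.030 at high-abundance sites, a change of sign.

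With the replicate number as a block the difference at 48 h was 0.18. The numbers do not pair the libraries, and the block moved no count of calls by over 1.5 times.

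Leaving out 1 library at a time gave 32 to 40 higher at 24 h, 27 to 34 at 48 h, 35 to 43 at 72 h and 32 to 44 for 72 h over 24 h, and 20 to 25, 2 to 7, 3 to 9 and 9 to 14 lower. The few lower calls moved most, to 6 and 7 at 48 h without 48 h replicate 1 or 2, 8 at 72 h without untreated replicate 2, 9 at 72 h without 72 h replicate 1, and 9 for 72 h over 24 h without 24 h replicate 2. The difference of medians stayed at 0.29 to 0.32, 0.14 to 0.20, 0.20 to 0.22 and -0.12 to -0.073. The causes of these changes were not tested.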
